A study of Rattus norvegicus with 20 samples.

Results

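The rows named Akna and Orm1 were followed through 20 count tables of rat spinal cord. They are 2 of the 26134 named rows in each table, and they were chosen by name, because earlier results of these data had placed them among the rows that were high in the injury epicenter at 14 and 28 days post injury (DPI). Their values in the epicenter and in sham cord are therefore given as a description, with no test. The flanking libraries were on the low side when the rows were picked, so tests among them are not free of that choice either. Tests are given only among the flanking segments, whose contrasts hold no epicenter or sham library. The fit behind them took all 20 libraries, so those libraries share in its filter on low counts and in its estimate of spread, and neither row would pass that filter on the DPI-1 flanks alone.

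Cord was injured by contusion, an impact that crushes the tissue, and ribosome-depleted total RNA was sequenced. The 20 libraries formed 10 groups of 2. They were cord labelled as sham and day 0, and 3 segments (epicenter, rostral or headward, caudal or tailward) on each of the days DPI-1, DPI-14, DPI-28. Strain, sex, age and cord level of the rats are not given in the sources used here, nor is the segment of the sham cord. Nothing in the labels ties a replicate to an animal of its own, or segments of 1 number to a shared animal, so the spread between libraries, and with it every p-value, may be technical in part.

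In the rat genome the genes Orm1 and Akna are neighbours on chromosome 5, with no other gene that has a named row between them. Orm1 encodes orosomucoid, also called alpha-1-acid glycoprotein, a plasma protein of the acute phase response made mainly by the liver. Akna encodes an AT-hook protein that has been described as a transcription factor and as a centrosomal protein that anchors microtubules. After a contusion, bleeding and the entry of neutrophils mark the first days, and macrophages and a scar fill the lesion in the following weeks. These are facts about the genes and the injury, and they are not read from the counts.

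The names of the rows could not be taken at face value. Of 55 marker names for 10 cell types of the cord, blood and liver, 53 had a row; 7 of these had 0 reads in all libraries and 20 had a mean under 1 read. Among them the rows Mag (oligodendrocytes), Aif1 (microglia), Kdr (endothelium) and S100a8 (neutrophils) were at 0 throughout. Such names can be displaced from the region that was counted, and whether the rows Akna and Orm1 hold reads of those genes was not tested. Both names are used below as labels of rows only. The libraries held 1216863 to 5233315 reads in named rows, and levels are given as CPM, read counts scaled to a common library size. The 4 libraries numbered 3 (sham and the 3 segments at DPI-28) had normalisation factors of 1.30 to 1.49, against 0.722 to 1.12 in the others, and they stood apart. Levels are therefore given by library, and tests that use DPI-28 also without these libraries.

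In sham cord both rows were low. Akna had 18 and 9 reads, or 5.30 and 3.97 CPM, in sham replicates 1 and 3. Orm1 had 1 read (0.294 CPM) in sham replicate 1 and 0 reads in sham replicate 3, where 3 reads would have been 1.73 CPM by library total.

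One day after injury neither row was higher in any segment than a few CPM. In the epicenter at DPI-1 Akna had 6 and 0 reads, or 1.98 and 0 CPM in replicates 1 and 2. Rostrally it had 1.24 and 3.73 CPM and caudally 0.293 and 2.44 CPM. All 6 DPI-1 libraries thus lay below both sham libraries in this row, a position that 11.0% of the 12528 tested rows shared. Orm1 had 0 reads in 5 of the 6 DPI-1 libraries and 5 reads (1.16 CPM) in rostral DPI-1 replicate 2. In the DPI-1 epicenter libraries 3 reads stood for 0.945 and 2.47 CPM by library total, so a level of Orm1 near that of sham was not detectable at this depth. In bulk tissue, fewer cells of a type and less RNA per cell cannot be told apart, here and in all values that follow.

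At DPI-14 both rows were high in the epicenter. Akna had 1371 and 1477 reads, or 466 and 320 CPM, in replicates 1 and 2. Orm1 had 169 and 171 reads, or 57.5 and 37.1 CPM. By mean CPM, Akna stood at place 407 of the 26134 named rows at DPI-14, after place 12076 at DPI-1, and Orm1 at place 3748. CPM values are not scaled by length, so they do not order the levels of different genes.

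At DPI-28 both rows were still high there. Akna had 1055 and 374 reads, or 262 and 182 CPM, in epicenter replicates 1 and 3. Orm1 had 184 and 130 reads, or 45.7 and 63.3 CPM. Akna was lower than at DPI-14 in both libraries, with a fitted log2 difference of -0.82 (standard error 0.62), while the Orm1 libraries of the 2 days overlapped, with a log2 difference of 0.20 (standard error 0.72). By library totals alone the Akna values were 475 and 342 CPM at DPI-14 and 238 and 242 CPM at DPI-28, so the scaling moved the spread within the DPI-28 pair and not the order of the days.

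In both rows the 4 epicenter libraries of DPI-14 and DPI-28 lay above each of the other 16. This is the pattern for which the rows were picked; 98 of the 12528 tested rows (0.782%) showed it. The lowest of the 4 Akna values was 182 CPM and the highest of the other 16 was 77.7 CPM, in caudal DPI-14 replicate 2. For Orm1 these values were 37.1 and 13.8 CPM, the latter in caudal DPI-14 replicate 1.

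**Figure D1:**
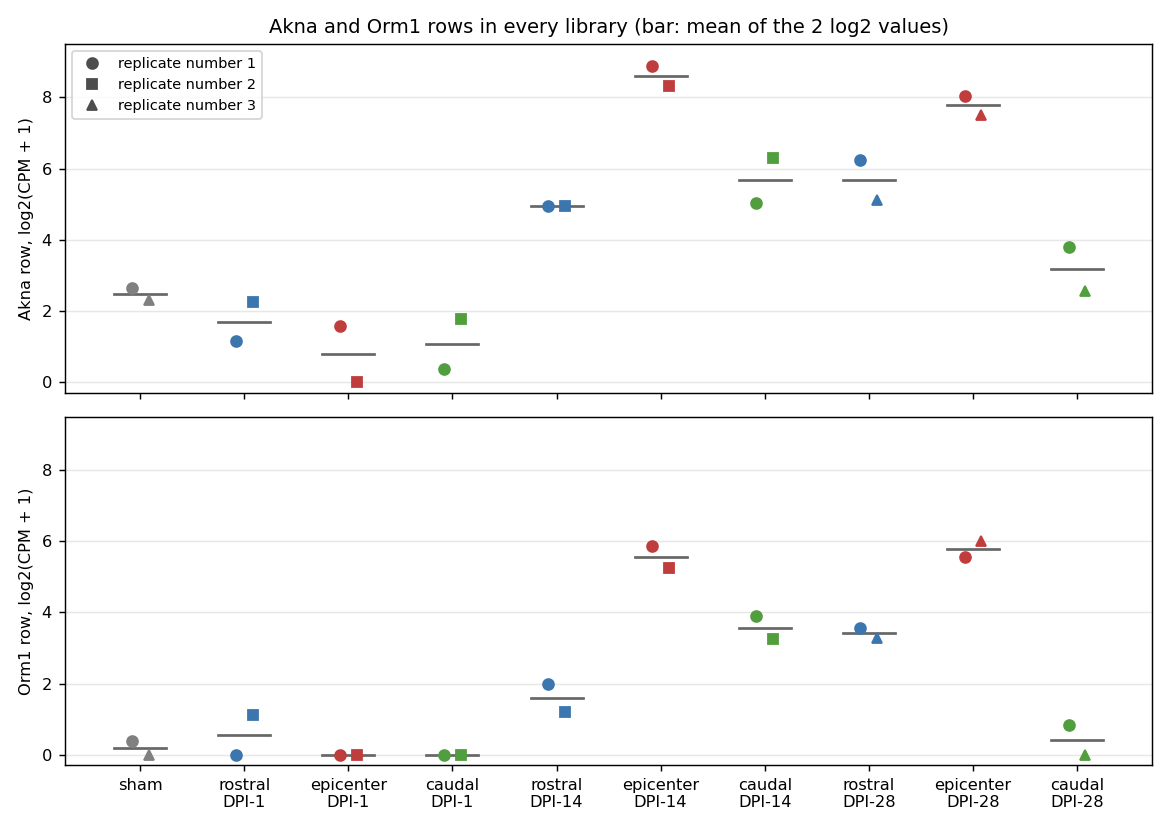
Level of the Akna row (upper panel) and the Orm1 row (lower panel) in each of the 20 libraries, as log2(CPM + 1), by group; marker shapes give the replicate number in the labels, colours the segment (grey sham, blue rostral, red epicenter, green caudal) and bars the mean of the 2 log2 values. The epicenter libraries of DPI-14 and DPI-28 are the 4 highest in both panels, and the flanking segments of those days lie between them and the DPI-1 libraries, except caudal DPI-28 in the Orm1 panel.

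The ratio of the late epicenter to sham was large in both rows but rests on few sham reads. From pooled reads, Akna was 79.0-fold higher at DPI-14 (95% counting interval 54.2 to 120) and 49.2-fold higher at DPI-28 (33.7 to 75.0), on 27 sham reads. For Orm1, with 1 sham read, the ratios were 255 (45.4 to 10093) and 292 (52.1 to 11575). These intervals cover counting error only, and the comparisons with sham share the same 2 sham libraries.

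The order of the 10 groups by mean CPM is given next for each row. For Akna it ran from epicenter DPI-14 (393 ± 103, SD, n = 2) through epicenter DPI-28 (222 ± 56.5), caudal DPI-14 (54.7 ± 32.5), rostral DPI-28 (54.0 ± 28.7), rostral DPI-14 (29.8 ± 0.0816), caudal DPI-28 (8.89 ± 5.71) and sham (4.64 ± 0.939) to rostral (2.48 ± 1.76), caudal (1.37 ± 1.52) and epicenter DPI-1 (0.991 ± 1.40 CPM). Neighbours in this order overlapped between caudal DPI-14 and rostral DPI-28, between caudal DPI-28 and sham, and among the 3 DPI-1 groups; rostral DPI-28 and rostral DPI-14 differed by less than 1 SD of the former. The small SD of rostral DPI-14 comes from 91 reads in each library and does not show a precise level.

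For Orm1 the epicenter came first at DPI-28 (54.5 ± 12.4 CPM, SD, n = 2) and then at DPI-14 (47.3 ± 14.4). Caudal DPI-14 (11.2 ± 3.72), rostral DPI-28 (9.78 ± 1.48) and rostral DPI-14 (2.13 ± 1.16) followed. The other 5 groups were below 1 CPM, down to 0 reads in the epicenter and caudal segment at DPI-1. Caudal DPI-14 and rostral DPI-28 overlapped in this row too.

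Outside the epicenter, the question was whether the 2 rows were also higher in the flanking segments on the later days. Akna was higher in the flanks at DPI-14 than at DPI-1, and Orm1 had higher values there too but did not pass the test. Rostral to the injury, Akna stood at 29.8 and 29.7 CPM at DPI-14, from 91 reads in each library. On the caudal side it stood at 31.7 and 77.7 CPM, from 62 and 182 reads. The 4 flanking libraries of DPI-1 had 0.293 to 3.73 CPM and 25 reads in all, and no library overlapped between the days, as in 7.38% of tested rows. Akna was 4.56 higher on the log2 scale with a standard error of 0.58 (95% interval 3.33 to 5.80), at an edgeR adjusted p of 0.00489. Among the 12528 rows tested, 50 (0.399%) were called, 42 (0.335%) higher and 8 (0.0639%) lower, and Akna had the second lowest p.

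The call depends on the libraries. Without rostral DPI-1 replicate 1 the edgeR adjusted p was 0.0788 and 0 rows were called, and with only the 4 groups compared in the fit it was 0.0506. Over all 16 alternatives the log2 fold change stayed between 3.99 and 5.43. The flank tests between days count rostral and caudal libraries as independent. Where these come from the same animals, the p-values of those tests can be too small.

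Orm1 just missed the threshold in the same comparison. Its rostral DPI-14 libraries held 9 and 4 reads (2.95 and 1.31 CPM), and its caudal ones 27 and 20 reads (13.8 and 8.54 CPM). The flanks of DPI-1 had 5 reads, all in 1 library (1.16 CPM). No library overlapped between the days in this row either, as in 7.38% of tested rows. For Orm1 this rests on 1.31 against 1.16 CPM, from 4 against 5 reads. That order comes from the scaling by library size and lies within counting error. Pooled reads were 14.5-fold higher at DPI-14 (95% counting interval 5.88 to 46.3). The fitted log2 fold change was 4.95 with a standard error of 1.007, and the edgeR adjusted p was 0.0527. Without rostral DPI-1 replicate 2, which held all 5 reads, the log2 fold change was 7.002. With only the groups compared in the fit, Orm1 did not pass (log2 fold change 4.85, edgeR adjusted p = 0.104). It passed when edgeR took the size factors of DESeq2 (adjusted p = 0.0474) or unscaled totals (0.0413), when the number-3 libraries were left out (0.0344) or had a term of their own (0.0149), with the replicate block (0.0181), and in DESeq2 itself (DESeq2 adjusted p = 0.000401). It did not pass in any edgeR fit that left out 1 library (0.0592 to 0.177).

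At DPI-28 the flanks were split between the sides. Rostral Akna values were 74.3 and 33.7 CPM in replicates 1 and 3, and caudal values were 12.9 and 4.86 CPM. All 4 lay above the DPI-1 flanks with no overlap, as in 4.80% of tested rows. Akna was 3.67 higher than at DPI-1 on the log2 scale, with a standard error of 0.58 (95% interval 2.45 to 4.90) and an edgeR adjusted p of 0.0349. In all, 4 of 12528 rows (0.0319%) were called, 2 higher (0.0160%) and 2 lower (0.0160%), and Akna was 1 of the 2 higher; with unscaled totals 2 were higher and 0 lower. The lowest caudal value lay between the 2 sham values of 3.97 and 5.30 CPM, so the row was not above sham in every flanking library at DPI-28, and neither was Orm1. A row whose 4 DPI-28 flanking libraries all lay above sham was found in 5.18% of cases. At DPI-14 both rows did so, with 10.9% of all rows.

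This call was lost without rostral DPI-1 replicate 1 (edgeR adjusted p = 0.219), without rostral DPI-1 replicate 2 (0.0919), without rostral DPI-28 replicate 1 (0.112) and with only the groups compared (0.437). It held without the number-3 libraries, at 4.19 on the log2 scale (edgeR adjusted p = 0.0333). Orm1 had 52 and 48 reads rostrally and 3 and 0 caudally at DPI-28, or 10.8, 8.74, 0.776 and 0 CPM. Its log2 fold change against DPI-1 was 3.58 with a standard error of 1.23, and it did not pass (edgeR adjusted p = 0.268). It was 1.93 without caudal DPI-28 replicate 1, 5.64 without rostral DPI-1 replicate 2 and 4.17 without the number-3 libraries, and it passed in none of these.

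Between DPI-14 and DPI-28 no change was called in the flanks as a whole. The log2 fold changes were -0.89 for Akna (95% interval -1.86 to 0.0741) and -1.37 for Orm1 (-2.79 to 0.0462), both with an edgeR adjusted p over 0.5 (0.583 and 0.571). The intervals include no change and falls of more than 3-fold. Without the number-3 libraries the values were -0.39 and -0.73, and leaving out 1 library gave -1.31 to -0.47 for Akna and -3.01 to -0.78 for Orm1, the lowest of each without caudal DPI-28 replicate 1. No row was called by edgeR (0 of 12528; 1131 had an unadjusted p under 0.05), and 48 were called by DESeq2.

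The rostral and caudal segments were compared at each day to ask whether the flanks differed. At DPI-14 both caudal libraries lay above both rostral ones in each row, though for Akna by as little as 31.7 against 29.8 CPM. At DPI-28 the order was the reverse in each row, with a lowest rostral value of 33.7 against a highest caudal value of 12.9 CPM for Akna, and of 8.74 against 0.776 CPM for Orm1. Among all tested rows, 10.2% had both caudal libraries above both rostral ones at DPI-14 and 13.0% had the reverse at DPI-28, so with 2 libraries a side such positions are common.

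By p the DPI-28 difference stood near the top of all rows, without passing. The log2 fold change, rostral over caudal, was 2.62 for Akna (standard error 0.68, 95% interval 1.18 to 4.05) and 4.73 for Orm1 (standard error 1.02, interval 2.58 to 6.89). Orm1 had the lowest and Akna the third lowest p of 12528 rows, but the edgeR adjusted p was 1 for both and 0 rows were called (151 at an unadjusted p under 0.05). Fewer rows lay under 0.05 than that threshold gives where no row differs, so the fit may be too strict for the sides. Missing the threshold thus does not show that the sides were alike. DESeq2 called 1 row, which was Orm1 (DESeq2 adjusted p = 0.0267). Without the number-3 libraries, which leaves 1 library a side, the values were 2.50 and 3.72. The Orm1 value was 8.01 without caudal DPI-28 replicate 1 and 3.59 without caudal DPI-28 replicate 3. From pooled reads, Orm1 was 31.2-fold higher rostrally (100 against 3 reads, 95% counting interval 10.4 to 154) and Akna 6.50-fold (542 against 78 reads, 5.12 to 8.35).

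At DPI-14 the same difference was -0.88 for Akna (standard error 0.64) and -2.37 for Orm1 (standard error 0.86), and at DPI-1 it was 1.21 for Akna (standard error 0.98) and rested on 5 reads against 0 for Orm1. The Akna value at DPI-1 moved between 0.10 and 2.98 with 1 library left out (the extremes without caudal replicates 1 and 2), so neither row gave a usable comparison there. The edgeR adjusted p was 1 in each case. No row was called at either day by edgeR (0 rows, with an unadjusted p under 0.05 in 168 at DPI-14 and in 259 at DPI-1) or by DESeq2 (0 rows). Both counts, and that of the next test, are again below what the threshold gives where no row differs, so the same limit holds. The change of side from DPI-14 to DPI-28 was tested as a difference of the 2 differences, a test added after the values had been seen. It was 3.50 for Akna (standard error 0.92) and 7.10 for Orm1 (standard error 1.34) on the log2 scale. Neither passed (edgeR adjusted p = 1 and 0.719; 0 rows called, 184 at an unadjusted p under 0.05), while DESeq2 gave an adjusted p of 0.407 for Akna and 0.000136 for Orm1. Without the filter on low counts both passed in edgeR (adjusted p = 0.00188 for Akna and 4.6e-06 for Orm1; 9 rows called). Without the number-3 libraries the values were 3.38 and 6.07.

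**Figure D2:**
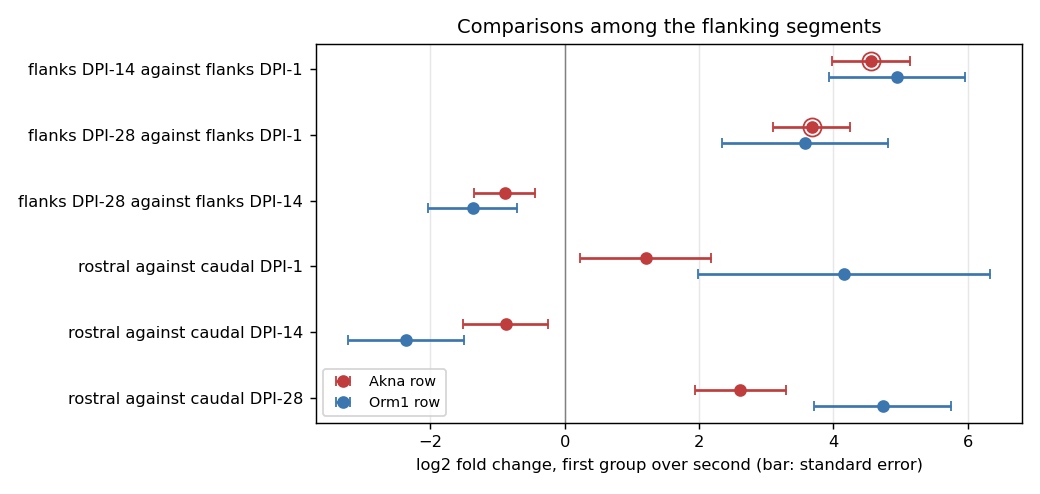
Fitted log2 fold changes of the Akna (red) and Orm1 (blue) rows in the 6 comparisons among flanking segments, with bars of 1 standard error; open rings mark an edgeR adjusted p under 0.05. The rings are at Akna for DPI-14 and DPI-28 against DPI-1, and the rostral-over-caudal values lie left of 0 at DPI-14 and right of it at DPI-28 in both rows.

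Beside the epicenter of the same day, the flanks held a small part of the signal. For Akna the mean flank level was 10.7% of the epicenter mean at DPI-14 and 14.2% at DPI-28, and for Orm1 it was 14.1% and then 9.34%. The caudal level of Akna went from 13.9% of the epicenter at DPI-14 to 4.01% at DPI-28, and that of Orm1 from 23.6% to 0.712%. The rostral level of Akna went from 7.57% to 24.3%, and that of Orm1 from 4.50% to 18.0%. Group means thus crossed between the sides, a change that did not pass the edgeR test above. The late epicenter libraries lay above all 4 flanking libraries of their day in both rows, which also held for 9.91% of tested rows at DPI-14 and 8.69% at DPI-28. The rows were thus highest in the epicenter but not limited to it.

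The 2 rows were then set against each other over libraries, since they stand for neighbouring genes. Within the 12 flanking libraries their log2(CPM + 1) values had a Pearson r of 0.868 and a Spearman rho of 0.886, and r was 0.846 without the 2 libraries farthest from the median of Akna. Within the 8 flanking libraries of DPI-14 and DPI-28, r was 0.834 and rho 0.786, and r fell to 0.711 without the 2 farthest. Within the 8 sham and DPI-1 libraries, where both rows hold few reads, r was 0.470 and rho 0.592. These are descriptions, with no p, since both rows were picked for being high in the same 4 libraries and whether they move together was known from earlier results, and libraries may share animals and differ in depth and day.

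**Figure D3:**
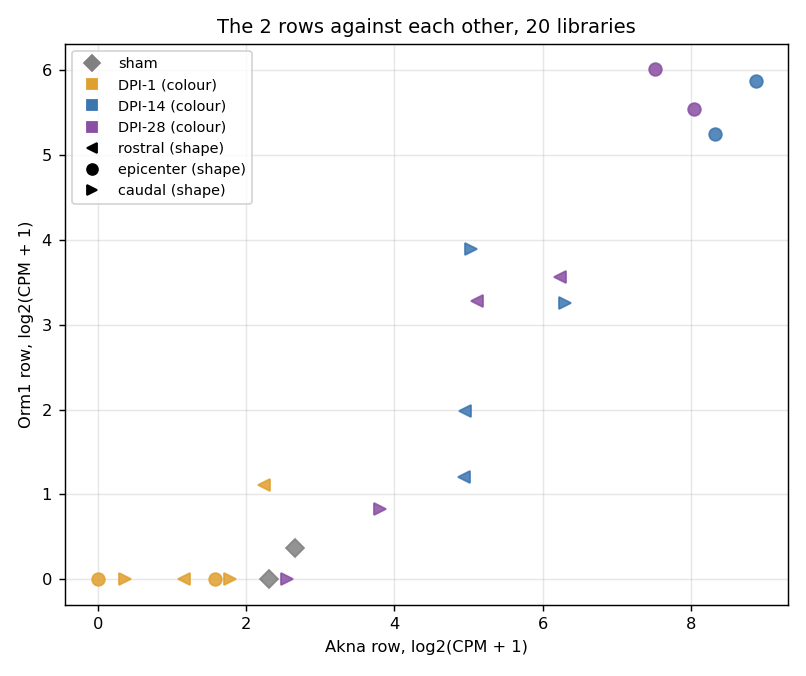
Orm1 row against Akna row in the 20 libraries, both as log2(CPM + 1); colours give the day and shapes the segment. The 4 late epicenter libraries lie apart at the upper right. The flanking libraries of DPI-14 and DPI-28 lie between them and the sham and DPI-1 libraries, except those of caudal DPI-28. On the Orm1 axis both caudal DPI-28 libraries lie within the range of DPI-1, and on the Akna axis 1 of them lies beside sham.

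Their reads did not keep 1 ratio. Orm1 made up 10.97% of the reads of both rows in epicenter DPI-14 replicate 1 (exact 95% interval 9.46% to 12.6%) and 10.4% in replicate 2 (8.95% to 11.95%). At DPI-28 it was 14.9% in epicenter replicate 1 (12.9% to 17.0%) and 25.8% in replicate 3 (22.0% to 29.8%). The 2 DPI-14 libraries had overlapping intervals, and the 2 DPI-28 libraries did not, so at DPI-28 the share differed between replicates by more than counting error. Replicate 3 is 1 of the number-3 libraries, and whether that sets its share was not tested. Over all rows, too, libraries of a group differed by more than counting error (chi-square per degree of freedom, 8.80 to 72.5). The ratio was followed in no other pair of rows, so its change is not shown to be particular to this pair.

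In the flanks the share ranged more widely. It was 30.3% in caudal DPI-14 replicate 1 (21.0% to 41.0%) and 9.90% in caudal DPI-14 replicate 2 (6.15% to 14.9%). Rostrally it was 9.0% and 4.21% at the earlier of these days and 12.7% and 20.6% at the later. In the caudal DPI-28 libraries it was 5.66% (1.18% to 15.7%) and 0 of 28 reads, which allows up to 12.3% by the exact interval. In 2 of the 6 groups of DPI-14 and DPI-28, epicenter DPI-28 and caudal DPI-14, the intervals of the 2 libraries did not overlap.

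**Figure D4:**
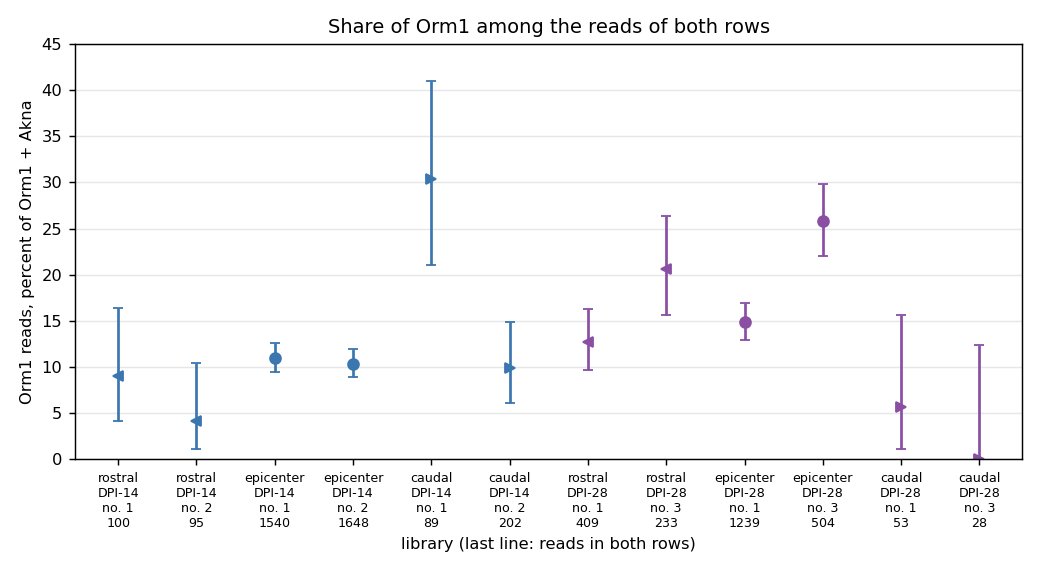
Orm1 reads as a percentage of the reads of the Orm1 and Akna rows in each of the 12 libraries of DPI-14 and DPI-28 (all with at least 25 reads in both rows), with exact 95% intervals for counting error; the last label line gives the reads in both rows. The share is near 11% in both epicenter DPI-14 libraries and 14.9% and 25.8% in the epicenter DPI-28 libraries.

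Over all 20 libraries the r of Akna and Orm1 was 0.940, a value on which the choice of 2 rows high in the same 4 libraries bears. In the 16 libraries outside the late epicenter it was 0.872. Neighbours were taken from the RefSeq gene table of the assembly GRCr8, used only for names and for gene order, in which 22515 named rows were found. In that order, 8090 pairs of adjacent tested rows had a median r of 0.347, and 35.8% were over 0.5. An r at least that of Akna and Orm1 over all 20 libraries was reached by 112 of these pairs (1.38%).

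The 10 nearest named rows on each side of the pair are given as a description. Of these 20 rows, 17 were tested and 0 were called in any of the 6 comparisons among the flanks, where 0.399%, 0.0319% and otherwise 0 of all rows were called, so the count says nothing particular of the neighbours. On the log2 scale, the mean CPM of the 4 late epicenter libraries over that of the other 16 was 4.07 for Orm1 and 3.97 for Akna, and between -0.44 and 1.06 for the 17 neighbours. The pair was chosen for this pattern, so its place above the neighbours is no finding. Late epicenter libraries above the other 16 were seen in 0 of the 20 neighbours and in 0.782% of all tested rows. The nearest rows were Mir455 and Col27a1 on one side, with means of 7.10 and 277 CPM in the late epicenter and 5.40 and 176 CPM elsewhere. On the other side were Whrn (119 and 83.0 CPM) and Atp6v1g1 (164 and 184 CPM). Their r with Akna was 0.497, 0.514, 0.577 and 0.00553, within the range of -0.124 to 0.816 over the 17 rows, whose highest value was that of Tnfsf15. The median over the 17 rows was 0.440, beside 0.0706 for all tested rows. Whether reads of overlapping genes were told apart by strand is not known.

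**Figure D5:**
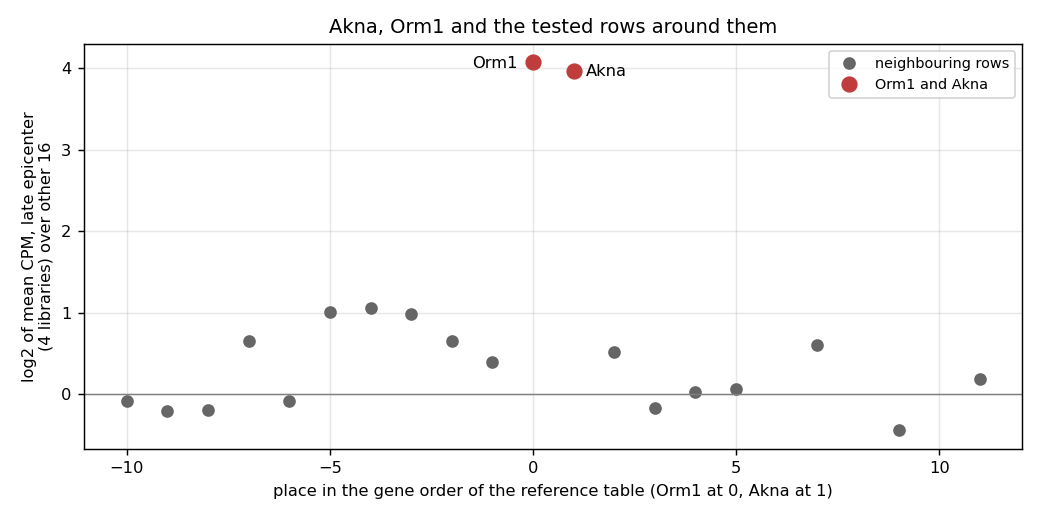
Log2 ratio of the mean CPM of the 4 epicenter libraries of DPI-14 and DPI-28 to that of the other 16 libraries, for Orm1 and Akna (red) and the 17 tested rows among the 10 nearest on each side (grey), by place in the gene order of the reference table. Places count only genes that have a named row. Orm1 and Akna, which were chosen for this pattern, lie near 4, and the neighbours lie between -0.44 and 1.06.

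Few rows followed the pair closely across all libraries. An r of at least 0.9 was reached by 16 of 12527 rows with Akna, by 4 with Orm1 and by 3 with both. Among rows without a provisional name, Cep290 was the most like Akna (r = 0.962), and it had an r of 0.93 with Orm1; the gene encodes a protein of centrosomes and cilia. Its range was narrower, with means of 179 CPM in sham and 149, 478 and 445 CPM in the epicenter, days in order. Tbc1d20, named for a GTPase-activating protein (r = 0.926 with Akna, 0.904 with Orm1), went from 4.89 to 58.4 and 34.5 CPM in the epicenter at the 3 days, with 5.60 CPM in sham. With Orm1 itself, Micall2 (0.920) and Grk5 (0.918), a kinase of G protein-coupled receptors by name, completed the 5 rows most like Akna. Mtrex (0.909), named for an RNA helicase of the nuclear exosome, and Tax1bp1 (0.90), for an autophagy receptor, completed those most like Orm1. Pearson r does not see the size of a change, and Mtrex had epicenter means of 61.2, 122 and 112 CPM, days in order. Each list kept only 3 of its 5 rows without the number-3 libraries.

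Rows named for genes that share a pathway with Orm1 or Akna are given by count, beside the 0.399% of all rows called in the flanks at DPI-14 and the 0.0319% at DPI-28. At those shares hardly any call would be seen in lists of this size. Of 23 rows named for acute phase proteins, 5 were at 0 in all libraries (Lcn2, Fga, Fgg, Hamp and Ttr) and 14 were tested. None of the 14 passed in the flanks at either later day against DPI-1, with medians of -0.42 and -0.22 on the log2 scale beside 0.05 and 0.13 for all rows. The 4 with the most reads were Itih3, Tf, Apcs and Lbp, with log2 differences at DPI-14 of -0.66, 0.70, -0.77 and -0.24. Orm1 belongs to this list, and its 4.95 stood above their values. Of 12 tested rows named for acute phase signalling, 0 passed at either day (medians -0.41 and 0.04), and Nr3c1, the glucocorticoid receptor by name, had the most reads, with -1.18. Of 12 tested rows named for the centrosome and the anchoring of microtubules, 1 was higher at both days, which was Akna itself (medians 0.01 and 0.30). Tubg1, Akap9 and Nin, named for proteins that hold microtubules at centrosomes, had log2 differences of 0.30, -0.41 and -0.26 at DPI-14. Of 7 tested rows named for epithelial to mesenchymal transition, 1 was higher at DPI-14, Zeb2, named for a transcriptional repressor (log2 fold change 1.92, edgeR adjusted p = 0.0248), and 0 at DPI-28 (medians 0.19 and 0.65). With row names that may be displaced, these counts say nothing of the pathways.

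Rows named for markers of some of the 10 cell types were summed beside these values. The sums of the neuron, astrocyte, oligodendrocyte, Schwann cell and red cell lists are not given here. The 7 rows named for microglia and macrophages added up to 97.3 to 196 CPM in the flanks at DPI-1, 85.4 to 99.2 CPM at DPI-14 and 70.7 to 97.6 CPM in the epicenter at DPI-14. The 5 rows named for neutrophils added up to 23.4 to 987 CPM, 47.0 to 156 CPM and 77.4 to 104 CPM, with Mpo and S100a8 at 0. The 4 rows named for endothelium added up to 185 to 289, 275 to 364 and 336 to 339 CPM, with Kdr at 0. The 6 rows named for fibroblasts added up to 61.2 to 175, 85.4 to 149 and 136 to 190 CPM in that order. The 5 rows named for hepatocytes added up to 741 to 1537, 939 to 1189 and 583 to 899 CPM. None of the tested rows among the 53 marker rows was called in the flanks at either later day against DPI-1. With 0.399% and 0.0319% of all rows called, hardly any call would be seen in so few rows, so this says nothing of the cell types. The rows Aif1 and, for hepatocytes, Ttr were at 0. Other rows of these lists held reads, but in each list 1 row held most of them, so each sum follows mainly that row. Over the 20 libraries their mean reads were 260 for Gpnmb, 306 for Csf3r, 799 for Cdh5, 331 for Pdgfra and 3098 for Apoa1. The next highest means of the same lists were 58.1 for Lyz2, 3.35 for Mmp8, 82.55 for Pecam1, 33.85 for Col3a1 and 257 for Alb. The part of such cells in the levels of Akna and Orm1 was not tested.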

How the data were processed

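RNA was extracted with Trizol, and libraries came from the KAPA HyperPrep kit with ribosomal depletion (RiboErase), per the labels' protocols. HISAT2, featureCounts and build rn6 appear in the submitters' processing notes; their versions, the annotation and the strand setting are not given in the sources used here. As deposited by the authors, the values are raw read counts, 1 table of 30452 rows for each library. Placeholder names stood on 4318 rows (5.87% to 7.37% of a library's reads), which entered no total and no test.

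Members, gene lists and comparisons were chosen with earlier results of these data known. The deposited counts were tested with the quasi-likelihood F test of edgeR 4.0.16 (R 4.3.3), with filterByExpr at a minimum count of 10, TMM factors and robust dispersions. A single fit took all 20 libraries, with 10 group terms and 10 residual degrees of freedom. P-values were adjusted by the Benjamini-Hochberg method over the 12528 rows kept, with a threshold of 0.05, and the standard error is the size of the log2 fold change divided by the root of its F statistic. CPM was computed from the counts over TMM-adjusted totals of named rows. Intervals of shares and pooled ratios are exact 95% binomial intervals; they and the floor of 3 reads cover counting error only, since the reads carry no molecular identifiers.

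No 2 libraries of a group were identical (chi-square per degree of freedom, 8.80 to 72.5). Tested on simulated data for flanks DPI-14 against DPI-1 (12136 rows), the fit called 4.48% of rows changed 2-fold, 48.5% of those changed 4-fold and 73.8% of those changed 8-fold, with 3 false calls. Rows named are Akna and Orm1, the 5 tested rows most correlated with each in log2(CPM + 1), the 2 nearest genes on either side and up to 4 rows of a list with the most reads; Tnfsf15, Zeb2 and rows at 0 were named after their values were seen. Alternatives were DESeq2 1.42.0, other scalings, no filter, fewer groups, each library left out, the replicate number as a block, a number-3 term, and the number-3 libraries left out; the last comparison, of the 2 rostral-against-caudal differences, was added after seeing the data. Python 3.11.15 did the rest, with pandas 2.3.3, numpy 2.4.6, matplotlib 3.10.9 and scipy 1.17.1.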

Additional observations from a re-analysis of the deposited data

Results flagged for a closer look

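Rows that carry only a placeholder name entered no comparison above, and the 1 of them most like the Akna row is described here. Among 1242 such rows with at least 40 reads in the 4 epicenter libraries of DPI-14 and DPI-28, it had the highest Pearson r with Akna over the 20 libraries (0.931). Its mean was 19.5 CPM in those 4 libraries, from 13.6 to 32.3 CPM, and it had 0 reads in both sham libraries. The highest of the other 16 libraries had 9.40 CPM. In the flanks it had 4 reads at DPI-1 and 52 at DPI-14. In all, 12 of the 1242 rows had their late epicenter libraries above the other 16, beside 98 of the 12528 tested named rows (0.782%). An r of at least 0.9 with Akna was reached by 2 of the 1242. The row described was picked as the highest of these r values, so its likeness to Akna is no finding. The row carries no name in the tables, so its place beside Akna or elsewhere was not determined.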

How the results depend on the processing

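Of 165 alternative values over the 12 results of Akna and Orm1 among the flanks, 148 kept their direction and their side of the threshold, 6 lost a call, 11 gained one and 0 reversed. In flanks DPI-14 against DPI-1, where 50 rows were called, the count was 479 in DESeq2, 724 without a filter, 538 with the replicate block, 567 with a number-3 term, 138 without the number-3 libraries, 2 with only the groups compared, and 0 to 276 with 1 library left out. In flanks DPI-28 against DPI-1, where 4 were called, these counts were 261, 794, 7, 9, 2, 0, and 1 to 65; with library totals alone it was 2. In flanks DPI-28 against DPI-14, where 0 were called, it was 48 in DESeq2, 195 without a filter, 1 with only the groups compared and 0 with any library left out. Rostral against caudal, also at 0, gave 25, 6 and 26 calls, days in order, without a filter, 1 in DESeq2 at DPI-28, and 0 with any library left out. Library totals alone moved the median log2 fold change of all rows in flanks DPI-14 against DPI-1 from 0.05 to 0.29, and Akna to 4.84.

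Akna lost its call at DPI-14 with only the groups compared (4.55) and without rostral DPI-1 replicate 1, over a leave-one-out range of 3.99 to 5.43. At DPI-28 it lost it with only the groups compared (3.67) and without 3 libraries in turn, over a range of 3.11 to 4.55. Orm1 passed at DPI-14 with DESeq2's size factors (4.94), library totals (5.04), no filter (4.94), the replicate block (4.92), the number-3 term (4.94), no number-3 libraries (4.91) and DESeq2 (4.44). Without a filter Orm1 also passed at DPI-28 (3.59), and rostral against caudal at DPI-28 passed for Akna (2.63) and Orm1 (4.75), for Orm1 in DESeq2 too (4.86). The change of side also passed without a filter, for Akna (3.48) and Orm1 (7.09). No filter gave more calls in all 6 comparisons while adding rows near 0; the cause was not tested. Each fit that leaves 1 library in a group assumes that it varies like the other groups, and for Orm1 at DPI-1, rostral against caudal, leaving out rostral replicate 2 gave no value, with 0 reads on both sides.

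Same-numbered libraries of 1 day had an r of deviations from 0.61 to 0.69 between segments at DPI-28 and from 0.22 to 0.45 at DPI-1. This r was as low as -0.12 at DPI-14, and it ran from -0.30 to 0.20 between DPI-1 and DPI-14. Between sham and the segments of DPI-28, which share the numbers 1 and 3, it was 0.449 (rostral), 0.440 (epicenter) and 0.501 (caudal). The numbers were therefore not taken to pair the samples, and a shared animal at DPI-1 or DPI-28 was not tested. With shared animals, the flank tests between days would hold fewer independent samples than libraries, and their p-values can be too small. Of the 5 rows most like Akna, 3 stayed with a pseudocount of 5 and 3 without the number-3 libraries. Depth limits Orm1 most, with 0 to 5 reads in each sham and DPI-1 library.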
